A study of Homo sapiens with 9 samples.

Results

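The 4 inhibitor-of-DNA-binding genes ID1, ID2, ID3 and ID4 were followed together with SMAD6, SMAD7, SMAD9, BAMBI, BMPR1A and BMPR2, which act in signalling by bone morphogenetic proteins (BMPs). The set holds 10 of the 36650 genes of the deposited table, chosen by function with earlier results of these data known, and found by symbol. ID1 and ID3 were picked from these data because their mRNA was lower with a mistargeted form of OGDHL than with eGFP, so for these 2 genes that difference is described here without a test. All 9 libraries came from the 16D line of castration-resistant prostate cancer, in which OGDHL had been disrupted by lentiviral CAS9 and a guide RNA. OGDHL resembles OGDH, the mitochondrial enzyme that oxidises 2-oxoglutarate in the citric acid cycle. The knockout cells had adapted to the antiandrogen enzalutamide for 6 weeks, were kept at 10 µM of it, and received a second lentivirus. This virus carried eGFP (the control), full-length OGDHL that the guide cannot cut, or the same kind of resistant OGDHL with its mitochondrial targeting sequence deleted (dMTS), with 3 libraries for each. Every group therefore carries the knockout and the drug, and no unedited or untreated cells are among the samples. Whether the line was a clone or a pool, which promoter drove the transgenes and whether the replicates were separate cultures is not stated in the labels, so a p-value here reflects only how far these samples differ, and part of that spread may be technical.

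BMPs bind paired type I and type II receptors, which phosphorylate SMAD1, SMAD5 and SMAD9. These proteins enter the nucleus with a common partner SMAD and switch on target genes, of which the ID genes are the best known. ID proteins carry a helix-loop-helix domain without a DNA-binding region and hold E proteins and other helix-loop-helix factors away from DNA. SMAD6, SMAD7 and BAMBI are themselves induced by the pathway and act back on it as inhibitors.

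All 10 genes had an entry in the RefSeq promoter table (GRCh38.p14, 12 entries, since SMAD7 has several starts), of which the 250 bases before each start were read. The first 2 sequences belong to the genes with the largest differences, the next to the feedback inhibitor SMAD6, which holds the rarest motif searched, and the last to BAMBI, whose level hardly differed. Both strands were searched for the SMAD box CAGAC, its palindromic form GTCTAGAC, the GC-rich SMAD site GGCGCC and the E-box CANNTG bound by helix-loop-helix factors. Capitals mark matches to the first 3 of these (GTCTG is CAGAC on the other strand), and no marked match overlaps another.

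ID1, chr20:31605039-31605288, plus strand: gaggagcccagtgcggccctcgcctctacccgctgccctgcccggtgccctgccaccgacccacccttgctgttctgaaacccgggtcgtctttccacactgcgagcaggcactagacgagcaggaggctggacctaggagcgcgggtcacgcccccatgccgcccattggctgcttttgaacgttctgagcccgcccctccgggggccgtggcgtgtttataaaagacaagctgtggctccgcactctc
ID3, chr1:23559502-23559751, minus strand: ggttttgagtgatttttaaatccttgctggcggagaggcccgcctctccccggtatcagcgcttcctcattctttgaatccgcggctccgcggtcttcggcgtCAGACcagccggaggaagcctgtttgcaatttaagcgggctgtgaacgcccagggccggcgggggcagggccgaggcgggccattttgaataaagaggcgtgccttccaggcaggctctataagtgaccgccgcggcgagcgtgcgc
SMAD6, chr15:66701986-66702235, plus strand: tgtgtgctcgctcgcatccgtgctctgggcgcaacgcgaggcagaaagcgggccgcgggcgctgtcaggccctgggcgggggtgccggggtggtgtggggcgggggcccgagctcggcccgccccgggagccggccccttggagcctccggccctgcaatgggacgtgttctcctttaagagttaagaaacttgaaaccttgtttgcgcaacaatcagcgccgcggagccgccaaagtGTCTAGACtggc
BAMBI, chr10:28677271-28677520, plus strand: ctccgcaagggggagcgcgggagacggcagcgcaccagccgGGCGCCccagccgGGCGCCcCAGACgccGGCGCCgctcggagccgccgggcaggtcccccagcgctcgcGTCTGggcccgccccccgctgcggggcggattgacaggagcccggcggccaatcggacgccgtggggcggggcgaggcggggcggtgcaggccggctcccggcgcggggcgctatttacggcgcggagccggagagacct

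The palindrome GTCTAGAC stood 12 bases before the start of SMAD6 and in none of the other 11 entries, and 64 of 35116 promoter entries (0.182%) hold it. CAGAC occurred in 6 of the 12 entries, among them ID3 (147 bases before the start) and ID4 (205 bases before it), and 38.0% of all entries hold it. GGCGCC occurred in BAMBI and BMPR2, against 16.4% of all entries. The E-box occurred in 7 of 12 entries, against 61.8% of all. The ID1 window held none of the 4 motifs. A match is a run of letters and not a shown binding site, and windows of 250 bases leave out distant enhancers.

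With dMTS, the mean levels of the ID genes, SMAD6, SMAD7 and SMAD9 were lower than with eGFP, for ID1 and ID3 by choice. Which of them were called depended on the fit, and as deposited no SMAD was. BMPR1A, BMPR2 and BAMBI gave no call in any fit. Levels were deposited as TPM, a share of all transcripts after division by length, and the test was limma on log2(TPM + 1) over the 13231 genes that reached 1 TPM in 3 or more libraries, with Benjamini-Hochberg adjustment and a call at an adjusted p under 0.05. SMAD6, SMAD7 and BMPR1A missed this filter, and SMAD9 passed it through eGFP replicates 1 and 2 and full-length replicate 3 alone, so 7 of the 10 genes were tested. As deposited, ID2 was called lower with dMTS among the 5 tested genes not picked on this contrast, against 0.514% of all genes called and 0.461% called lower (61 lower, 7 higher). With each library rescaled to a median log2 ratio of 0, ID2, ID4 and SMAD9 were called lower. Of all genes, 9.44% were called and 6.12% called lower (810 lower, 439 higher). Since SMAD9 reached the filter in eGFP and full-length libraries alone, its rescaled call is a description. The same contrast was tested by limma-voom on estimated reads, recovered from the TPM, for the 23941 genes that reached 10 reads in 3 or more libraries, all 10 genes among them. There ID2, ID4, SMAD6, SMAD7 and SMAD9 fell, 5 of the 8 genes not picked on the contrast. Of all genes, 7.5% were called and 5.55% called lower (1329 lower, 466 higher). All 10 genes were chosen with earlier results of these data known, so such counts, here and below, describe the set and do not test it. Without eGFP replicate 2 the voom calls of ID4 and SMAD7 were lost (limma adjusted p = 0.0590 and 0.0553), and without dMTS replicate 3 that of ID4 (limma adjusted p = 0.0594).

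With full-length OGDHL the group means of the 7 ID and SMAD genes lay between those of the other 2 groups, without a call, and the libraries of several of these genes overlapped a neighbouring group. Against eGFP, limma called none of the genes as deposited, rescaled or with voom, where 0.00756%, 0.0302% and 0.0251% of all genes were called. This contrast shares the eGFP libraries with the one on which ID1 and ID3 were picked, so the counts that follow leave these 2 genes out. At an unadjusted p under 0.05, 1 of 5 genes was lower as deposited (ID2, against 1.97% of all genes in either direction) and 1 of 5 rescaled (ID2, against 9.18%). By voom 4 of 8 were lower (ID2, SMAD6, SMAD7 and SMAD9, against 7.4%). All 3 full-length libraries lay below all 3 eGFP libraries for 2 of the 8 genes as deposited (ID2 and SMAD6) and for 4 rescaled (ID2, ID4, SMAD6 and SMAD7), against 7.51% and 8.13% of the 23941 genes.

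Between the 2 forms, limma called none of the genes as deposited, rescaled or with voom, where 0%, 0.00756% and 0.00418% of all genes were called. Among those not picked on the dMTS libraries, 2 of 5 had an unadjusted p under 0.05 as deposited (ID2 and ID4, against 5.42% of all genes) and 3 of 5 rescaled (ID2, ID4 and SMAD9, against 15.1%). By voom 6 of 8 did (ID2, ID4, SMAD6, SMAD7, SMAD9 and BMPR1A, all lower with dMTS, against 13.6%). Every dMTS library lay below every eGFP library for 5 of the 8 genes not picked on this contrast (ID2, ID4, SMAD6, SMAD7 and SMAD9) in either scaling, against 7.61% of all genes as deposited and 15.9% rescaled. ID2 and SMAD6 had every dMTS library below every full-length library and every full-length library below every eGFP library (1.17% of all genes), and rescaled ID4 did so too (2.16%). ID1 and ID3 showed the same order, part of which their choice fixed.

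**Figure D1:**
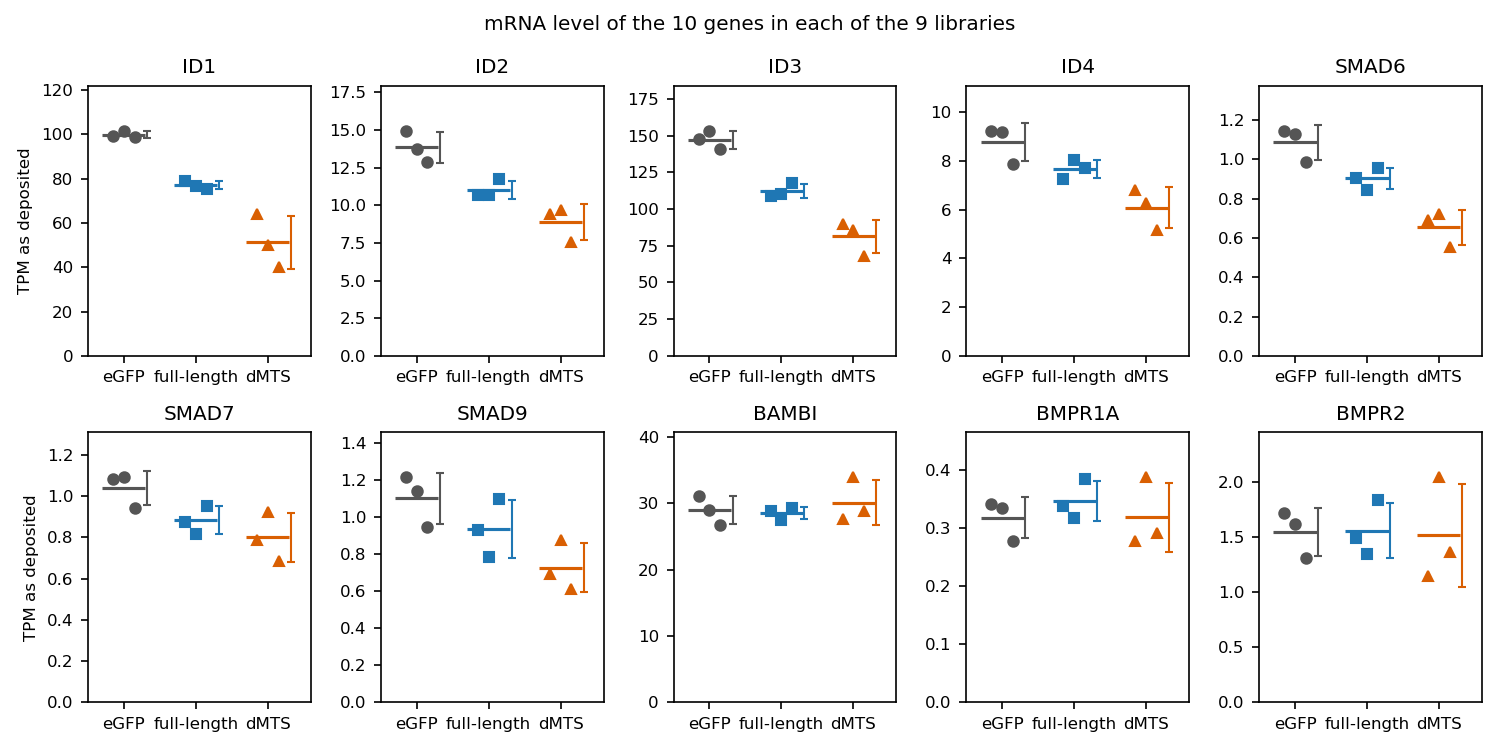
mRNA level (TPM as deposited, each axis starting at 0) of the 10 genes in the 9 libraries, with 1 point per library, a horizontal line at the group mean and a bar of 1 SD (n = 3). For ID1, ID2, ID3 and SMAD6 the groups form 3 separate steps from eGFP down to dMTS, while the groups overlap for BAMBI, BMPR1A and BMPR2.

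The libraries held an estimated 86.3 to 121 M reads (M, 1000000), and the 10 genes of the set had 732 to 12590 estimated reads per library. Other genes named below could have fewer. BMP8A, with 561 to 753, is an example and is not given as the lowest. Reads are not given for ATOH8 and DLX3, which were below 1 TPM in all 9 libraries. Lengths in the table equal genomic spans with introns, so TPM understate genes with long introns, and log2(TPM + 1) understates changes at low TPM. OGDHL was at 1.12 to 1.26 TPM with eGFP, 165 to 270 TPM with the full-length form and 76.1 to 175 TPM with dMTS. Of the luminal prostate markers, KLK3 was at 1041 to 1235 TPM and HOXB13 at 244 to 324 TPM in the 9 libraries. Of the basal markers, TP63 was at or near 0 and KRT14 at 0.321 to 0.563 TPM. Of the leukocyte markers, PTPRC was at or near 0 and CD68 at 0.262 to 0.601 TPM. The summed stromal and endothelial markers were lower in the order eGFP (3.25 to 3.39 TPM), full-length (3.08 to 3.15 TPM) and dMTS (2.44 to 2.81 TPM), nearly all of it from COL1A1, with COL1A2, PECAM1 and CDH5 at or near 0. Which cells of the culture carried the COL1A1 mRNA, and its part in the differences below, was not tested. The share of TPM from mitochondrially encoded genes was lowest in dMTS replicate 2 (54.9%, against 62.1% to 66.0% in the other libraries), which raises the TPM of other genes there, and the rescaling lowered that library by a median log2 ratio of 0.27.

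ID1, an inhibitor of helix-loop-helix factors and a classical BMP target (ENSG00000125968, chr20:31605283-31606515, plus strand of GRCh38), was at 99.4, 101 and 98.6 TPM with eGFP. It was at 78.9, 76.7 and 75.3 TPM with full-length OGDHL and at 63.9, 49.8 and 39.9 TPM with dMTS. The groups did not overlap, and the 3 dMTS libraries spread far more than the others, with replicate 1 nearest to the full-length group. The mean was 99.8 ± 1.45 TPM with eGFP and 51.2 ± 12.1 TPM with dMTS (SD, n = 3). The full-length mean was 77.1% and the dMTS mean 51.3% of the eGFP mean. Since these are bulk RNA samples, fewer cells that express a gene and less RNA per cell cannot be told apart. For full-length against eGFP the log2 difference by voom was -0.39, given without a test because it shares the eGFP libraries.

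ID3, a close relative of ID1 (ENSG00000117318, chr1:23557926-23559501, minus strand), showed the same order of groups. Its level was 148, 153 and 141 TPM with eGFP, 109, 111 and 117 TPM with full-length and 90.1, 85.5 and 68.3 TPM with dMTS. As for ID1, the groups were separate, with dMTS replicate 3 the lowest. The full-length mean was 76.3% and the dMTS mean 55.3% of the eGFP mean of 147 ± 6.23 TPM (SD, n = 3). The voom log2 difference of full-length from eGFP was -0.40, also given without a test. The difference of dMTS from eGFP, a description because the gene was picked on it, was -0.93 on the same scale for ID3 and -1.06 for ID1.

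ID2, which was not picked on its level (ENSG00000115738, chr2:8678845-8684461, plus strand), fell with dMTS. It was at 14.9, 13.7 and 12.9 TPM with eGFP, 10.7, 10.7 and 11.7 TPM with full-length and 9.43, 9.69 and 7.55 TPM with dMTS. The 3 groups did not overlap. The voom log2 fold change of dMTS against eGFP was -0.72 (SE 0.0832, limma Benjamini-Hochberg adjusted p = 0.0020), and the dMTS mean was 64.2% of the eGFP mean. As deposited the change was -0.59 (SE 0.104, limma adjusted p = 0.0443), and among the fits that leave out 1 library it was called only without dMTS replicate 1 or 2. Without each of the other 7 libraries in turn the adjusted p was 0.0511 to 0.247 by limma. The deposited call was also lost with no filter on low values (limma adjusted p = 0.120) and with only the 6 libraries compared in the fit (limma adjusted p = 0.0620). Rescaled, the change was -0.66 (SE 0.0876, limma adjusted p = 0.0103), and leaving out 1 library lost the call only for eGFP replicate 2 (limma adjusted p = 0.0571). In the voom fit ID2 was called whichever library was left out, with limma adjusted p from 3.2e-05 to 0.0164.

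ID4, also an inhibitor of helix-loop-helix factors (ENSG00000172201, chr6:19837370-19842197, plus strand), fell with dMTS in the rescaled and voom fits. Its level was 9.23, 9.20 and 7.87 TPM with eGFP, 7.27, 8.03 and 7.72 TPM with full-length and 6.79, 6.29 and 5.16 TPM with dMTS. The full-length libraries overlapped the eGFP group through eGFP replicate 3, and the dMTS libraries lay below both groups. Against eGFP it fell with dMTS by 0.61 on the log2 scale in the voom fit (SE 0.108, limma Benjamini-Hochberg adjusted p = 0.0106). The call was absent as deposited (limma adjusted p = 0.0847), where it passed only without dMTS replicate 1 (adjusted p = 0.0245). Rescaled, the change of -0.53 was called (limma adjusted p = 0.0303), in 3 of the 9 fits with 1 library left out, with adjusted p from 0.000769 to 0.112. By voom it was lost without dMTS replicate 3 (limma adjusted p = 0.0594) or eGFP replicate 2 (limma adjusted p = 0.0590).

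SMAD6, the inhibitory SMAD that acts mainly on BMP receptors (ENSG00000137834, chr15:66702236-66782849, plus strand), fell with dMTS. It was at 1.14, 1.13 and 0.985 TPM with eGFP, at 0.907, 0.846 and 0.956 TPM with full-length and at 0.690, 0.721 and 0.555 TPM with dMTS. The 3 groups were separate, though eGFP replicate 3 and full-length replicate 3 lay close together. The dMTS mean was 60.3% of the eGFP mean and the full-length mean 83.1% of it. By voom the log2 fold change with dMTS was -0.81 (SE 0.0834, limma Benjamini-Hochberg adjusted p = 0.00137). It passed whichever of the 9 libraries was left out, with a highest limma adjusted p of 0.0147. On log2(TPM + 1) without a filter on low values the change was -0.33 (limma adjusted p = 0.148), a scale on which a gene near 1 TPM loses much of its change.

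SMAD7, the inhibitory SMAD of both the BMP and the TGF-beta branch (ENSG00000101665, chr18:48919853-48950965, minus strand), had the smallest decrease among those of the 10 genes that voom called. It was at 1.09, 1.09 and 0.943 TPM with eGFP, 0.876, 0.818 and 0.954 TPM with full-length and 0.786, 0.925 and 0.687 TPM with dMTS. The full-length group overlapped both others as deposited, and dMTS lay below eGFP. The voom log2 fold change with dMTS was -0.46 (SE 0.0778, limma Benjamini-Hochberg adjusted p = 0.00932). The call was lost without eGFP replicate 2 (limma adjusted p = 0.0553) and, on log2(TPM + 1), with no filter (-0.18, adjusted p = 0.442).

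SMAD9, a receptor-activated SMAD also called SMAD8 (ENSG00000120693, chr13:36844831-36920887, minus strand), is itself counted among BMP target genes. It was at 1.21, 1.14 and 0.949 TPM with eGFP, at 0.929, 0.787 and 1.10 TPM with full-length and at 0.695, 0.876 and 0.613 TPM with dMTS. Full-length replicate 3 lay within the eGFP range, and every dMTS library lay below every eGFP library. By voom it fell with dMTS by 0.67 on the log2 scale (SE 0.106, limma Benjamini-Hochberg adjusted p = 0.00678) and was called in each of the 9 fits that left out 1 library. As deposited, the change of -0.28 was not called (limma adjusted p = 0.265), whereas the rescaled -0.32 was (adjusted p = 0.0206). No dMTS library reached the filter of these 2 fits, so the rescaled call is a description. With 1 library left out SMAD9 passed the filter in 6 of 9 fits, and 3 of these rescaled fits called it (limma adjusted p from 0.0136 to 0.085).

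BAMBI, a receptor-like protein without a kinase domain that blocks TGF-beta family receptors (ENSG00000095739, chr10:28677510-28682932, plus strand), is often induced along with the inhibitory SMADs. It was at 31.1, 29.04 and 26.8 TPM with eGFP, 28.8, 27.6 and 29.2 TPM with full-length and 27.6, 33.9 and 28.9 TPM with dMTS. All groups overlapped. The voom log2 fold change was -0.03 with full-length (95% CI -0.12 to 0.06, limma adjusted p = 0.873) and -0.01 with dMTS (95% CI -0.10 to 0.08, limma adjusted p = 0.870). The interval for dMTS does not reach the decrease of any of the 5 genes that voom called lower.

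BMPR1A, a type I BMP receptor (ENSG00000107779, chr10:86755786-86932825, plus strand), was at 0.342, 0.334 and 0.278 TPM with eGFP, 0.338, 0.318 and 0.385 TPM with full-length and 0.279, 0.387 and 0.291 TPM with dMTS. BMPR2, the type II BMP receptor (ENSG00000204217, chr2:202376327-202567751, plus strand), was at 1.72, 1.62 and 1.31 TPM with eGFP, 1.497, 1.35 and 1.84 TPM with full-length and 1.15, 2.04 and 1.37 TPM with dMTS. Both genes had overlapping groups, and both were highest in dMTS replicate 2, the library with the lowest mitochondrial share. By voom, BMPR1A differed with dMTS by -0.07 (95% CI -0.24 to 0.09, limma adjusted p = 0.592) and BMPR2 by -0.13 (95% CI -0.42 to 0.16, limma adjusted p = 0.589). With full-length the values were 0.11 (95% CI -0.05 to 0.28, limma adjusted p = 0.772) and -0.01 (95% CI -0.29 to 0.28, limma adjusted p = 0.993). A change in BMPR2 of up to the size seen for ID4 with full-length, -0.21, lies within its interval.

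**Figure D2:**
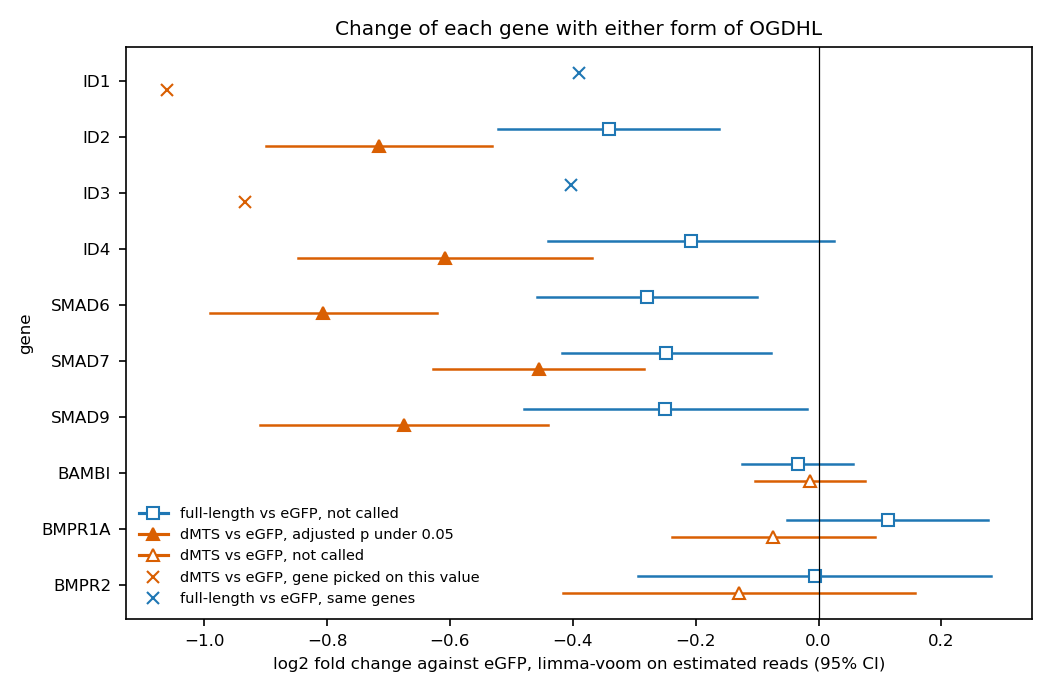
log2 fold change against eGFP of the 10 genes in the limma-voom fit on estimated reads, with 95% confidence intervals; filled triangles mark dMTS contrasts with an adjusted p under 0.05, and crosses without an interval mark ID1 and ID3, which were picked on the dMTS value and share its eGFP libraries in the other. The full-length values of the 7 ID and SMAD genes lie between -0.40 and -0.21 and those of BAMBI and the receptors between -0.03 and 0.11.

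Full-length and dMTS were then compared gene by gene. By voom the log2 difference of dMTS from full-length was -0.37 for ID2 (SE 0.0845, limma adjusted p = 0.107), -0.40 for ID4 (SE 0.109, adjusted p = 0.157) and -0.53 for SMAD6 (SE 0.0843, adjusted p = 0.0905). It was -0.21 for SMAD7 (SE 0.0792, limma adjusted p = 0.277) and -0.43 for SMAD9 (SE 0.107, adjusted p = 0.136). The differences of ID1 (-0.67) and ID3 (-0.53) share the dMTS libraries on which those genes were picked and have no test here. Without dMTS replicate 1, whose ID levels were nearest to the full-length group, the limma adjusted p by voom was 0.00164 for ID2, 0.00294 for ID4 and 0.000588 for SMAD6. That library enters the comparison of full-length with eGFP only through the pooled spread, and without it limma-voom called ID2 lower with full-length (adjusted p = 0.0467).

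Relative to the eGFP mean after rescaling, ID1 stood at 68.3% in dMTS replicate 1 and at 40.4% and 39.8% in replicates 2 and 3. The same split appeared for ID2 (72.9%, 56.8% and 54.4%), ID3 (65.4%, 47.1% and 46.2%) and ID4 (82.9%, 58.2% and 58.7%). SMAD6 (68.0%, 53.8% and 50.9%) and SMAD7 (80.9%, 72.2% and 65.9%) were also highest in dMTS replicate 1, and SMAD9 was at 67.7%, 64.7% and 55.7%. OGDHL mRNA was also lowest in dMTS replicate 1 (76.1 TPM, against 175 and 124 TPM in replicates 2 and 3), and its part in these differences was not tested. In the full-length libraries ID1, ID2 and ID3 stayed within 72.0% to 81.0%.

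**Figure D3:**
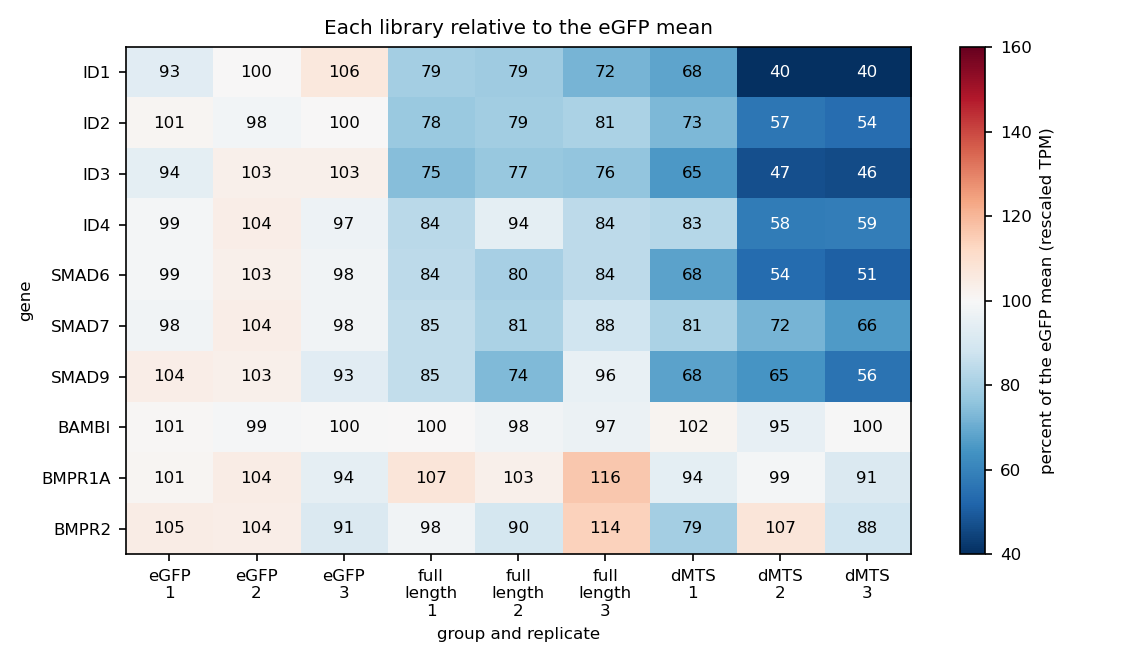
Level of each gene in each library as a percent of the eGFP mean, from TPM rescaled to a median log2 ratio of 0; rows are genes, columns are libraries, blue is below 100 and red above. ID1 runs from 93.2% to 106% in eGFP, from 72.0% to 79.5% in full-length and from 39.8% to 68.3% in dMTS, while BAMBI stays between 94.98% and 102% in all 9 libraries.

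Across the 9 libraries the 7 ID and SMAD genes varied together. Their pairwise Pearson correlations on rescaled log2(TPM + 1) were 0.83 to 0.99, against 0.05 to 0.59 between one of them and BAMBI, BMPR1A or BMPR2. As deposited the ranges were 0.78 to 0.98 and -0.30 to 0.60. These values describe 9 libraries in 3 groups that differ in mean, so they hold the group differences as well as variation within groups. The 7 genes are those that were lower with dMTS, and ID1 and ID3 were picked on that difference. The correlations therefore restate the group differences in part and give them no separate support. The 5 other genes most like ID1 over the 9 libraries, among 11280 tested genes with a symbol, were ERVK3-1, STK36, PLXNA3, BTBD6 and WDR91 (Pearson r of 0.995 to 0.996 on the rescaled scale), and those most like ID3 were TSC2, ERVK3-1, CYBC1, BTBD6 and the long noncoding RNA PAXBP1-AS1 (r of 0.991 to 0.992). A correlation of at least 0.95 was reached by 339 genes for ID1 and by 239 for ID3. ERVK3-1, which stood in both sets of 5, was at a mean of 13.1 TPM in eGFP, 11.8 TPM in full-length and 10.0 TPM in dMTS.

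To compare levels between genes, estimated reads per 1000000 were divided by kilobases of exon in GENCODE 29. With eGFP, ID3 was highest at 40.2 reads per 1000000 and kilobase, followed by ID1 at 31.1, BAMBI at 21.1, ID2 at 11.0, BMPR2 at 7.75, ID4 at 5.62, SMAD9 at 4.55, SMAD6 at 3.18, SMAD7 at 2.00 and BMPR1A at 1.53 (means, n = 3). No neighbours in this order overlapped over the 3 eGFP libraries. With dMTS, ID1 at 15.4 stood below BAMBI at 20.9, and ID2 at 6.74 overlapped BMPR2 at 7.14. SMAD7 at 1.46 then overlapped BMPR1A at 1.46. The exon length counts every annotated isoform, so genes with long alternative exons are understated.

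Other genes of the pathway were taken from 10 lists of 94 genes ordered by role, of which 89 are in the table. As deposited 30 of them passed the filter and limma called none in any contrast. Rescaled, 2 of 30 were called higher and 4 lower with dMTS against eGFP, where 9.44% of all genes were called and 6.12% called lower. By voom 1 of 69 was called higher and 6 lower with dMTS, against 7.5% of all genes in either direction, and none was called with full-length or between the forms.

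Among the BMP ligands with a value by voom, BMP8A was called lower, 1 of 7, at a log2 fold change of -0.31 (limma adjusted p = 0.0396). It was singled out after its value was seen, as were ATOH8 and DLX3 below, and its near copy BMP8B, the list's highest in TPM (1.22, 1.27 and 1.46 TPM as group means), gave 0.17 (limma adjusted p = 0.316). Reads of these 2 neighbouring paralogs may not be separable. None of 7 other receptors and co-receptors was called, with RGMB, a BMP co-receptor, at 4.89, 5.01 and 5.44 TPM. Neither was any of 3 other SMADs of the BMP branch, with SMAD5 at 3.38, 3.68 and 3.84 TPM, nor any of 9 secreted antagonists, with FSTL3, which binds activins and some BMPs, at 3.48, 3.47 and 3.58 TPM.

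Among 14 intracellular regulators of SMAD signalling, PMEPA1, a TGF-beta-induced inhibitor that binds SMADs, was the only one called by voom. It was at 6.76, 6.78 and 6.07 TPM with eGFP, 5.97, 6.08 and 6.20 TPM with full-length and 5.05, 6.18 and 5.09 TPM with dMTS. The groups overlapped as deposited, and the voom log2 fold change with dMTS was -0.34 (SE 0.0417, limma adjusted p = 0.00278). Rescaled, SKI, a corepressor of SMADs, was also called lower (-0.12, limma adjusted p = 0.0384). On the same scale TOB1, an antiproliferative protein that represses SMAD activity, was called higher (0.21, limma adjusted p = 0.0391). Neither was called by voom without rescaling (limma adjusted p = 0.0951 and 0.0648). By voom with rescaling, 1 of the 14 regulators was called higher and 2 lower. STUB1, a ubiquitin ligase and the highest of the list in TPM, was at 81.4, 81.9 and 81.0 TPM.

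Of the other BMP target genes, 3 of 7 were called lower with dMTS by voom, against 5.55% of all genes, and the list's median log2 fold change was -0.58 beside 0.01 over all genes. As deposited 0 of the 3 that passed the filter were called (median -0.08 beside 0.06), and rescaled 1 of 3 was called lower (median -0.14 beside 0.01). ATOH8, a helix-loop-helix factor induced by BMPs, was at 0.259, 0.293 and 0.242 TPM with eGFP, 0.150, 0.127 and 0.172 TPM with full-length and 0.116, 0.082 and 0.084 TPM with dMTS. Its groups were separate, and its voom log2 fold change was -1.59 with dMTS (SE 0.173, limma adjusted p = 0.00169) and -0.83 with full-length (SE 0.156, limma adjusted p = 0.208). HEY1, a transcriptional repressor shared by the Notch and BMP pathways, was at 1.18, 1.21 and 1.09 TPM with eGFP, 1.09, 1.08 and 1.07 TPM with full-length and 0.785, 0.689 and 0.575 TPM with dMTS. The dMTS libraries of HEY1 lay below all others, eGFP replicate 3 came close to the full-length group, and the voom log2 fold change was -0.85 with dMTS (SE 0.138, limma adjusted p = 0.00783) and -0.12 with full-length (SE 0.126, limma adjusted p = 0.848). The homeobox gene DLX3 was at 0.657, 0.776 and 0.532 TPM with eGFP, 0.511, 0.485 and 0.455 TPM with full-length and 0.342, 0.365 and 0.291 TPM with dMTS. These groups were separate too, and DLX3 was called lower with dMTS at -1.04 (SE 0.169, limma adjusted p = 0.0079). MSX1, another homeobox gene and the highest of the list in TPM, was at 6.56, 6.12 and 6.52 TPM and not called (-0.08, limma adjusted p = 0.602).

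**Figure D4:**
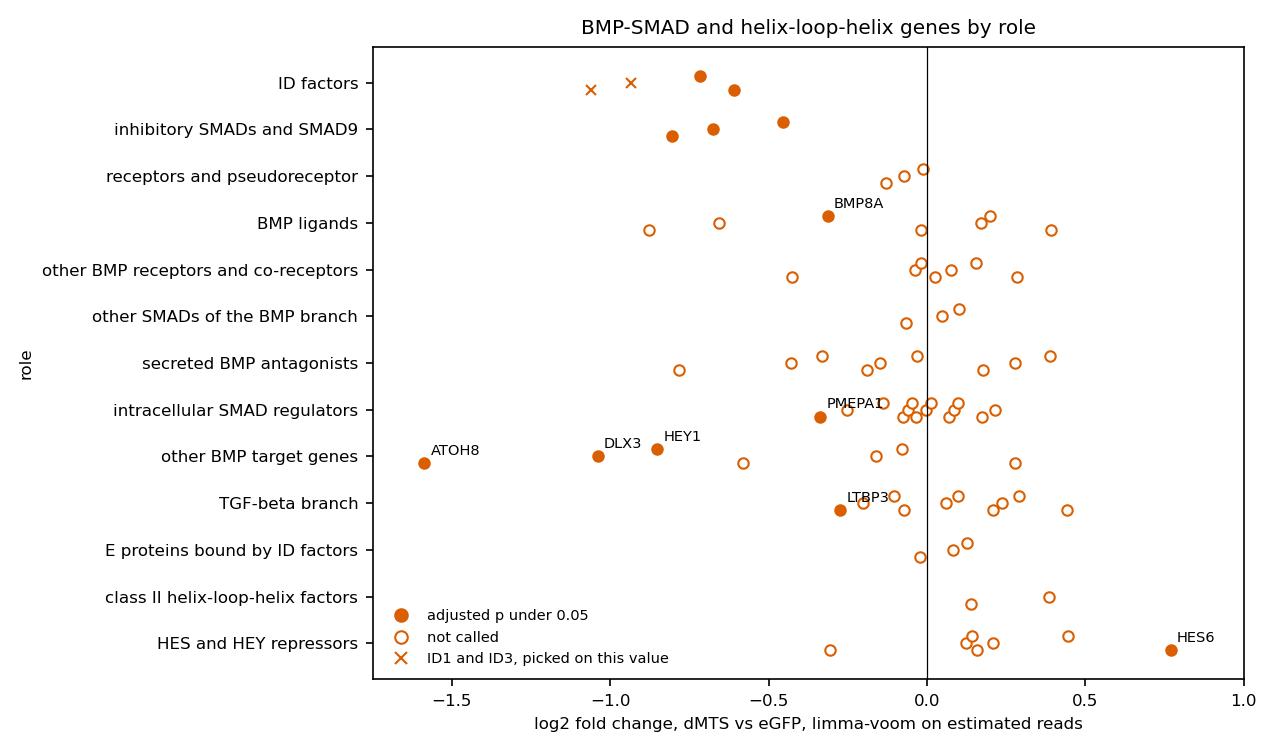
log2 fold change of dMTS against eGFP in the limma-voom fit for the genes described and for the other listed genes, with 1 row per role; filled points have an adjusted p under 0.05, open points do not, and crosses are ID1 and ID3, picked on this value. The called genes are ID2, ID4, SMAD6, SMAD7 and SMAD9 at the upper left, ATOH8, DLX3 and HEY1 among other BMP target genes, and single genes of 4 further roles, of which HES6 at 0.77 is the only one above 0.

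In the TGF-beta branch, LTBP3, which stores latent TGF-beta in the matrix, was called lower, 1 of 10 genes, at -0.27 by voom (limma adjusted p = 0.00813) and -0.24 rescaled (limma adjusted p = 0.0138). The E proteins that ID factors bind were not called (0 of 3), with TCF3 at 3.17, 3.28 and 3.29 TPM and a log2 fold change of -0.02 with dMTS (SE 0.0441, limma adjusted p = 0.789). None of 2 class II helix-loop-helix factors was called, with ATOH1 at 0.946, 1.04 and 1.10 TPM. Among HES and HEY repressors, HES6, which counteracts HES1 and is raised in neuroendocrine tumours, was called higher, 1 of 7, at 3.81, 4.07 and 4.34 TPM with eGFP, 4.69, 4.76 and 4.66 TPM with full-length and 5.49, 9.38 and 7.19 TPM with dMTS. Its groups were separate, and the voom log2 fold change with dMTS was 0.77 (SE 0.131, limma adjusted p = 0.00911). BHLHE40, kept in that list though it is neither a HES nor a HEY gene, was its highest in TPM. It was at 16.6, 17.8 and 19.1 TPM and not called (0.12, limma adjusted p = 0.218).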

How the data were processed

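Messenger RNA was sequenced from 9 libraries, 3 per group. The authors deposited 1 table of TPM values, and each column sums to 1000000. Per the submitters' processing notes STAR and GRCh38 were used; versions, quantifier and annotation: not given in the sources used here. The table's length column equals the genomic span. TPM times span gave estimated reads: values under 20 reads lay within 0.01 of a whole number in 72.0% to 74.6% of cases. As these are estimates, no counting intervals are given, and the main test used TPM.

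The test was limma 3.58.1 (R 4.3.3) on log2(TPM + 1), with a variance trend, all 9 libraries, no covariate and 6 residual degrees of freedom, for genes that reached 1 TPM in 3 or more libraries. Two-sided p-values were adjusted over all tested genes by the Benjamini-Hochberg method, and a gene was called below 0.05. Calls were repeated with libraries rescaled to a median log2 ratio of 0 and with limma-voom on estimated reads (genes reaching 10 reads in 3 or more libraries). The limma fit on log2(TPM + 1) values was also run on simulated data. These had independent noise of equal spread in every group and no shift of whole libraries. The simulation therefore does not show how the fit performs on these samples. Alternatives changed the pseudocount (0.1 or 5), dropped the filter, raised it to a mean of 5 TPM, fitted only the 6 libraries compared, took OGDHL and mitochondrial genes out of the TPM, added the replicate block or left out each library. Added after seeing the data were voom with rescaling, with the block and with each library left out.

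The genes and lists were chosen with earlier results of these data known. Named genes were the 10 described, each listed pathway gene called as deposited or rescaled, the member of each list with the highest mean TPM, and the 5 genes most like ID1 or ID3; BMP8A, ATOH8 and DLX3 fall outside this rule and were named after their values were seen. Promoters came from RefSeq (GRCh38.p14). No 2 columns were identical, and 0 columns belonged to other samples. Some luminal markers are not reported here.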

Additional observations from a re-analysis of the deposited data

How the results depend on the processing

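Signs of the 7 ID and SMAD genes were the same under all alternatives run against eGFP; those of BAMBI, BMPR1A and BMPR2 were not in at least 1 of the contrasts. Called members below include ID1 and ID3, which were picked on dMTS against eGFP, so the member counts are a description. Without these 2 genes, limma called 1 of 5 tested members for dMTS against eGFP as deposited and 3 of 5 rescaled. The latter include SMAD9, which passed the filter through eGFP and full-length libraries alone. By voom limma called 5 of 8, with or without rescaling. For dMTS against eGFP, limma called 68 genes (0.514% of all tested) and 3 members as deposited, and 1249 (9.44%) and 5 rescaled. It called 13 genes and 0 members with no filter, and 39 genes at a mean TPM of at least 5. With TPM without OGDHL and mitochondrial genes the counts were 1279 and 7. By voom they were 1795 (7.5%) and 7, and by voom rescaled 2198 (9.18%) and 7. For full-length against eGFP, 1 gene was called as deposited, 7 with no filter, 2 at the higher mean, 4 rescaled, 6 by voom with or without rescaling and 0 without OGDHL and mitochondrial genes, and no member under any of these. For dMTS against full-length, 0 genes were called as deposited, 7 with no filter, 14 by voom rescaled, and 1 at the higher mean, rescaled, by voom or without OGDHL and mitochondrial genes. The causes were not tested.

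Leaving out 1 library gave 3 to 467 genes and 0 to 4 members for dMTS against eGFP as deposited, 52 to 2365 and 0 to 5 rescaled, and 321 to 3426 and 5 to 7 by voom. For full-length against eGFP it gave 1 to 2 and 0 as deposited, 1 to 13 and 0 to 2 rescaled, and 1 to 25 and 0 to 3 by voom. For dMTS against full-length it gave 0 to 62 and 0 to 1, 0 to 915 and 0 to 4, and 0 to 1214 and 0 to 5. In both dMTS contrasts the highest gene counts came without dMTS replicate 1, and against eGFP the fewest without eGFP replicate 2. With 2 libraries left in a group, the spread is pooled over the groups. These member counts include ID1 and ID3 and are a description. With all 9 libraries, 13231 genes and 7 members were tested as deposited or rescaled, and 23941 genes and 10 members by voom. With 1 library left out, SMAD9 was tested in only 6 of the 9 fits as deposited or rescaled.

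Same-numbered libraries did not deviate together (correlations of deviations from -0.46 to 0.09). With 3 libraries per group this cannot exclude a pairing or a shared batch, and the labels do not say whether the numbers pair the samples. With the replicate block, limma called 13 genes and 2 members for dMTS against eGFP (ID2 was not called, adjusted p = 0.119), 101 genes and 2 members rescaled, and 863 genes and 7 members by voom. The 10 genes had at least 732 estimated reads in each library, and the filter on span-based TPM removed 3 of them from the main test.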
